A study of Mus musculus with 4 samples.

Results

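The genes described here are 10 skeletal muscle genes, 4 regulators of satellite cells and myoblasts (*Pax7*, *Myf5*, *Myod1* and *Myog*) and 6 genes of the sarcomere (*Myh1*, *Myh3*, *Mylpf*, *Actn3*, *Tnnt3* and *Ttn*), taken by symbol from a table of 45802 genes. They were selected on the difference between populations in these libraries, so the population differences below are a description and carry no test. In brief, 5 of the 6 sarcomere genes were lower in both PDGFRα reporter+ libraries than in both PDGFRα reporter- libraries, with mean differences from 1.50-fold for *Actn3* to 25.7-fold for *Myh1*. *Tnnt3* overlapped between the populations. Of the regulators, *Pax7* and *Myf5* had no value in any library, and *Myod1* and *Myog* had values in 3 of 4 libraries each.

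The libraries were made from cultured periosteal cells of the femurs and tibias of male mice that carry a Cre recombinase driven by the *Pdgfra* promoter (PDGFRα-CreERTM) and the mT/mG reporter. All animals were given 5 daily doses of tamoxifen (150 mg/kg), and cells were taken 14 days after the last. The labels give an age of 2 months at tamoxifen and of 9 to 10 weeks for the mice used, which do not add up exactly. In cells with an active promoter, tamoxifen replaces membrane tdTomato by membrane GFP. GFP thus marked the PDGFRα reporter+ and tdTomato the PDGFRα reporter- population, and the colour records promoter activity at the time of tamoxifen rather than at the time of sorting. Cells of 3 to 6 mice per population according to the labels (the methods give another range) were grown with 15% FBS and 10 ng/mL bFGF for 1 passage, sorted as negative for CD31, CD45 and Ter119, and sequenced as 2 libraries of each population. The libraries are named here by population and by the number, 2 or 3, in the heading of their column. Nothing states that the libraries came from separate animals or cultures, so that spreads and p-values cover only the differences between these libraries.

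Satellite cells are the stem cells of skeletal muscle and lie on the muscle fibre. *Pax7* marks them at rest, *Myf5* and *Myod1* encode the basic helix-loop-helix factors that commit them to the myoblast fate, and *Myog* (myogenin) is switched on when myoblasts leave the cell cycle, fuse and begin to make sarcomeres. In the sarcomere, myosin heavy chains (*Myh1* in adult fast fibres, *Myh3* in embryonic and regenerating fibres) form thick filaments together with light chains such as *Mylpf*. Thin filaments carry the troponin complex, to which *Tnnt3* (fast troponin T) belongs, α-actinin 3 (*Actn3*) holds thin filaments at the Z-disc of fast fibres, and the giant protein titin (*Ttn*) spans the distance from the Z-disc to the M-line. Periosteum lies beneath muscle, and the protocol describes removal of the soft tissue around the bones before digestion.

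The myogenic factors bind E-boxes (CANNTG), which read alike on both strands, and MEF2 factors bind an AT-rich motif that was searched in its usual degenerate form. RefSeq promoter sequences on GRCm38.p6 were matched for 7 of the 10 genes, and the 250 bases before the start were searched. An E-box was present in 4 of these 7 windows, against 66.2% of all 32851 windows of this length, and the E-box CAGCTG in 1 of 7 (*Mylpf*) against 13% of all windows. The MEF2 motif was present in 2 of 7, against 2.92% of all windows. The windows of *Pax7* and *Myf5* held neither. Those of *Pax7* and *Mylpf* lay wholly inside the GENCODE M21 gene models, which begin 560 and 2718 bases before the RefSeq starts. A match describes letters and not a bound site. The sequences of *Myog*, *Myh3*, *Myh1* and *Ttn* are shown because they are the regulator and the sarcomere genes with the widest differences that had a sequence outside other transcripts. Capitals mark the E-boxes of *Myog* (138 and 12 bases before the RefSeq start, the second inside the GENCODE M21 gene model, which begins 15 bases earlier), of *Myh3* (191 bases before) and of *Ttn* (138 bases before), and the 10-base MEF2 motif of *Myh1* (211 bases before) and of *Ttn* (166 bases before). The windows lie at chr1:134289754-134290003 on the plus strand (*Myog*), chr11:67078050-67078299 on the plus strand (*Myh3*), chr11:67199852-67200051 on the plus strand (*Myh1*, printed to the start of its GENCODE M21 gene model, 200 bases) and chr2:76982548-76982797 on the minus strand (*Ttn*).
Myog: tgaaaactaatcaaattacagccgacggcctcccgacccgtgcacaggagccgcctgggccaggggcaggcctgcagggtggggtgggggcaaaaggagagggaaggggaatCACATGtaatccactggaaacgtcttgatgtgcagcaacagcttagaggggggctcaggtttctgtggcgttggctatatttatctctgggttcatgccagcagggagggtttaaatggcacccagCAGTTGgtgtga
Myh3: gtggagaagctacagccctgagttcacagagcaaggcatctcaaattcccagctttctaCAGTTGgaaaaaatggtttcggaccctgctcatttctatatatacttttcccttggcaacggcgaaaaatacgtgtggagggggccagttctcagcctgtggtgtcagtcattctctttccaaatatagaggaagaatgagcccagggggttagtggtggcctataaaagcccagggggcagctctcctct
Myh1: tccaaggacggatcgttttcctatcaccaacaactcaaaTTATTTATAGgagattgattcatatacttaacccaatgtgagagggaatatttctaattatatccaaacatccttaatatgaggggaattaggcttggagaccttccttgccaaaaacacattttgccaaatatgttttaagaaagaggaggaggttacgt
Ttn: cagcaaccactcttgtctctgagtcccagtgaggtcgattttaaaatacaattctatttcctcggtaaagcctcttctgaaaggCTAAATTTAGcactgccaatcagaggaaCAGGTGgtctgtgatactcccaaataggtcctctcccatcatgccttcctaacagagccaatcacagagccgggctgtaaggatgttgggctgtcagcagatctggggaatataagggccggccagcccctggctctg

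The deposited values are log2 expression values after quantile normalization, with a blank where a gene had no signal. The lower quartile (−1.47), median (1.48) and upper quartile (3.00) were the same in all 4 libraries. The linear unit is not stated, but low values fell on steps set by gene length: after adding the log2 of the exonic length, 213 to 237 values per library lay within 0.1 of the lowest step, 139 to 156 lay within 0.1 of a step 1 higher on the log2 scale, and 47 to 51 lay within 0.1 of the point halfway between. Levels below are therefore read per length, 1 read in 1000 bases of exon was worth about −5.48 to −5.39, and each value could be turned into an approximate number of reads, given as read equivalents. Quantile normalization and uncertain transcript lengths make these estimates rough. The cells had the profile of fibroblasts in both populations, with *Col1a1* at 7.64 and 7.44 in PDGFRα reporter+ and 7.85 and 7.48 in PDGFRα reporter- libraries. *Pdgfra* itself was at 7.78 and 7.62 in PDGFRα reporter+ and at 7.87 and 7.44 in PDGFRα reporter- libraries, with overlapping populations. All values of the 10 muscle genes lay below the median of their library, and the highest of them was −0.35 for *Tnnt3*. In such bulk libraries, fewer cells of a type and less RNA per cell cannot be told apart.

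*Pax7* (chromosome 4, 139737062-139833528, minus strand, GRCm38) and *Myf5* (chromosome 10, 107482908-107486134, minus strand) were blank in all 4 libraries. With 3 reads as the limit that a blank allows, and for counting error only, the level of *Pax7* was at most about −6.39 and that of *Myf5* at most about −4.90 in each library. The satellite cell marker and the earliest of the myogenic factors were thus not detectable at this depth in either population.

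*Myod1* (chromosome 7, 46376474-46379099, plus strand) had a log2 value of −2.05 in PDGFRα reporter+ number 2, a blank in PDGFRα reporter+ number 3, −2.05 in PDGFRα reporter- number 2 and −5.34 in PDGFRα reporter- number 3. These correspond to about 20, 0, 19 and 2.0 read equivalents. Within number 2 the populations were at the same level (difference −0.00), and both libraries of number 3 were at or near the level of single reads. The higher library of *Myod1* was number 2 in each population.

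*Myog* (chromosome 1, 134289989-134292548, plus strand) had log2 values of −3.78 and −4.98 in PDGFRα reporter+ numbers 2 and 3 and of −1.71 in PDGFRα reporter- number 2, and was blank in PDGFRα reporter- number 3. The highest library, PDGFRα reporter- number 2, held about 20 read equivalents, against 4.9 and 2.0 in the PDGFRα reporter+ libraries. Within number 2 *Myog* was 4.19-fold lower in PDGFRα reporter+ (log2 difference −2.07), whereas within number 3 only the PDGFRα reporter+ library had a value, at 2.0 read equivalents. The blank of PDGFRα reporter- number 3 allows a level up to about −4.42, above the PDGFRα reporter+ value. Number 3 thus gave no direction for *Myog*. Without filling blanks, no difference over all 4 libraries could be computed for a regulator, since 0 of 4 had a value in each library.

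**Figure D1:**
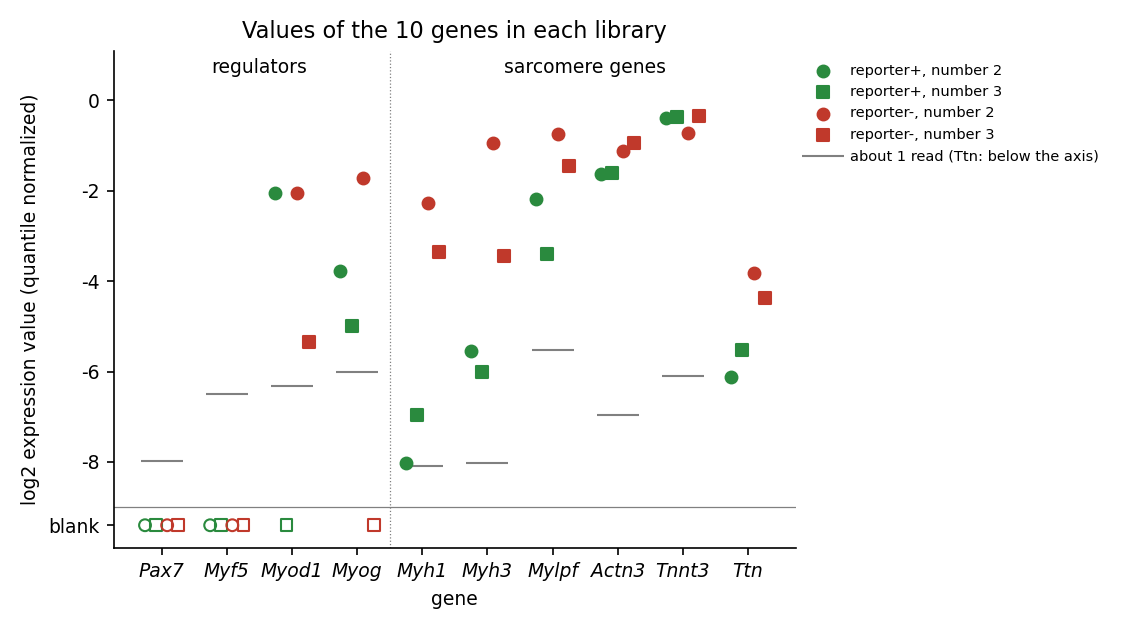
Log2 expression value (vertical axis, quantile normalized) of each of the 10 genes in each library; filled symbols are values, open symbols in the lowest band are blanks, and grey dashes mark the level of about 1 read. *Myh1*, *Myh3*, *Mylpf*, *Actn3* and *Ttn* are lower in both PDGFRα reporter+ libraries (green) than in both PDGFRα reporter- libraries (red), *Tnnt3* overlaps, and *Pax7* and *Myf5* are blank throughout.

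Among the genes of the thick filament, *Myh1* (chromosome 11, 67200052-67224575, plus strand) had the widest difference. It had log2 values of −8.02 and −6.97 in PDGFRα reporter+ numbers 2 and 3 and −2.26 and −3.36 in PDGFRα reporter- numbers 2 and 3. The PDGFRα reporter+ libraries held about 1.1 and 2.1 read equivalents, the level of single reads, and the PDGFRα reporter- libraries about 57 and 27. PDGFRα reporter+ cells averaged −7.49 ± 0.74 and PDGFRα reporter- cells −2.81 ± 0.78 (SD, n = 2 each), a log2 difference of −4.68 with a standard error of 0.80, or 25.7-fold. Standard errors here and below come from limma. They draw on the variance of genes of similar level and are not the spread of the libraries of the gene alone. The ratio of the summed read equivalents (84 to 3) was 28. So few reads stood behind the PDGFRα reporter+ values that the size of this ratio is poorly determined. Within number 2 the difference was 54.2-fold and within number 3 it was 12.2-fold.

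*Myh3* (chromosome 11, 67078300-67102291, plus strand), the embryonic myosin heavy chain, had log2 values of −5.54 and −6.00 in PDGFRα reporter+ numbers 2 and 3 and of −0.95 and −3.44 in PDGFRα reporter- numbers 2 and 3. The PDGFRα reporter- libraries differed from each other by 2.49, more than for any other of the 6 sarcomere genes. Both lay above both PDGFRα reporter+ libraries. The mean difference was −3.57 with a standard error of 1.01 (11.9-fold), 24.2-fold within number 2 and 5.87-fold within number 3. In reads, PDGFRα reporter- number 2 held about 134 read equivalents, PDGFRα reporter- number 3 about 24 and the PDGFRα reporter+ libraries 5.8 and 4.0. *Myh1* and *Myh3* belong to a cluster of closely related genes on chromosome 11, and how reads shared among them were counted is not given in the sources used here, so the split between them is uncertain.

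*Mylpf* (chromosome 7, 127208890-127214298, plus strand), the regulatory light chain of fast fibres, had log2 values of −2.19 and −3.39 in PDGFRα reporter+ numbers 2 and 3 and of −0.74 and −1.45 in PDGFRα reporter- numbers 2 and 3. Number 2 was the higher library in both populations, and the populations did not overlap. The mean difference was −1.69 with a standard error of 0.62 (3.23-fold), and it was alike within number 2 (−1.45) and within number 3 (−1.94). *Mylpf* held 10 and 4.2 read equivalents in PDGFRα reporter+ libraries, against 27 and 17.

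*Ttn* (chromosome 2, 76703980-76982547, minus strand) had log2 values of −6.11 and −5.52 in PDGFRα reporter+ numbers 2 and 3 and of −3.81 and −4.37 in PDGFRα reporter- numbers 2 and 3. It was the lowest of the sarcomere genes per length in PDGFRα reporter- cells. Its length nevertheless gave it the most reads, about 76 and 106 in PDGFRα reporter+ and 356 and 244 in PDGFRα reporter- libraries, more than any other of the 10 genes. The mean difference was −1.73 with a standard error of 0.67 (3.32-fold), 4.92-fold within number 2 and 2.23-fold within number 3. An antisense gene (*Gm13938*) overlaps *Ttn* on the other strand and has no row in the table, as has *Myhas* over *Myh1*.

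At the Z-disc, *Actn3* (chromosome 19, 4861216-4877909, minus strand) had log2 values of −1.62 and −1.61 in PDGFRα reporter+ and of −1.12 and −0.95 in PDGFRα reporter- numbers 2 and 3. The libraries of each population lay close together (SD 0.01 and 0.12) and the populations did not overlap, but the difference was small, −0.58 (1.50-fold). Its standard error from limma, 0.37, draws on genes of similar level and not on these SDs alone. The difference was 1.42-fold within number 2 and 1.58-fold within number 3, on 40 to 65 read equivalents per library.

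*Tnnt3* (chromosome 7, 142498836-142516009, plus strand) was the exception. Its log2 values were −0.39 and −0.36 in PDGFRα reporter+ and −0.73 and −0.35 in PDGFRα reporter- numbers 2 and 3, on 41 to 54 read equivalents per library. Fast troponin T was thus the highest of the 10 genes per length in each library, although *Mylpf* (−0.74) was at nearly the same level in PDGFRα reporter- number 2. The populations overlapped for *Tnnt3*. The mean difference was 0.16 with a standard error of 0.34, with 0.34 within number 2 and −0.01 within number 3.

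Over the 6 sarcomere genes, the median log2 difference was −1.71, with −1.88 within number 2 and −1.55 within number 3, beside a median of −0.00 over all 14415 genes with a value in each library. Both PDGFRα reporter+ libraries lay below both PDGFRα reporter- libraries for 5 of 6 genes, a pattern that 8.10% of all genes showed (7.59% showed the opposite) and that 9.74% of the 4191 genes with a mean log2 value below 0 showed. Since the genes were taken for this difference, nothing is read from that count. The spread of the log2 difference was also wider at low levels, with an SD of 0.688 over genes with a mean below 0 and of 0.216 over the others. In the fit across all genes with limma, without a block, 0 of 14415 genes (0%) differed between the populations after Benjamini-Hochberg adjustment (threshold 0.05). Before adjustment 131 lay below that threshold. With the number as a replicate block, 29 genes passed, and 0 did when the variance trend was also left out.

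The order of the sarcomere genes per length was *Tnnt3* (mean log2 value −0.54), *Actn3* (−1.03), *Mylpf* (−1.10), *Myh3* (−2.20), *Myh1* (−2.81) and *Ttn* (−4.09) in PDGFRα reporter- cells. The gaps between *Actn3* and *Mylpf*, *Mylpf* and *Myh3*, and *Myh3* and *Myh1* were within the SD of the libraries. Neighbours among these 4 genes are thus not resolved there, but *Actn3* and *Mylpf* lay above *Myh1* in both PDGFRα reporter- libraries. In PDGFRα reporter+ cells the order was *Tnnt3* (−0.38), *Actn3* (−1.62), *Mylpf* (−2.79), *Myh3* (−5.77), *Ttn* (−5.82) and *Myh1* (−7.49), with *Myh3* and *Ttn* not separated beyond their spread. *Myh1* was thus above *Ttn* in one population and last in the other. *Tnnt3*, the gene with the narrowest difference, had the highest mean in both populations.

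**Figure D2:**
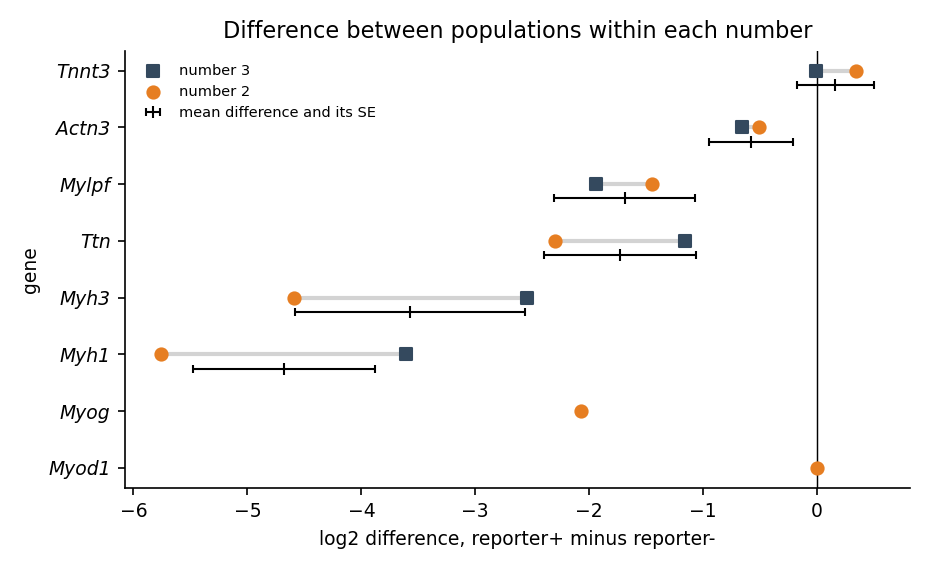
Log2 difference between PDGFRα reporter+ and PDGFRα reporter- libraries (horizontal axis) of each gene within number 2 (circles) and number 3 (squares), with the mean difference and its standard error from limma beneath. *Myh1* and *Myh3* have the widest differences in both numbers, *Tnnt3* lies at 0.34 and −0.01, and *Myod1* and *Myog* could be compared within number 2 only.

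Regulators and sarcomere genes were set side by side in each library. The sarcomere genes had values in all 4 libraries, and their summed linear value was 1.35 and 1.25 in PDGFRα reporter+ numbers 2 and 3 against 2.46 and 1.91 in PDGFRα reporter- numbers 2 and 3. For *Myod1* and *Myog* together the sum was 0.314 and 0.0318 in PDGFRα reporter+ and 0.548 and 0.0247 in PDGFRα reporter- libraries, so that number 2 lay above number 3 in both populations. Per length, the regulators were not below the sarcomere genes throughout. In PDGFRα reporter- number 2, *Myog* (−1.71) and *Myod1* (−2.05) lay above *Myh1* (−2.26) and *Ttn* (−3.81), and in PDGFRα reporter+ number 2, *Myod1* (−2.05) and *Myog* (−3.78) lay above *Myh3* (−5.54), *Ttn* (−6.11) and *Myh1* (−8.02). In PDGFRα reporter- number 3, *Myod1* (−5.34) lay below the 6 sarcomere genes, the lowest of which was *Ttn* (−4.37), and the blank of *Myog* allows a level up to about −4.42. With values on so few reads, no test of a difference between the 2 groups of genes was made.

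The difference between the numbers is another contrast than the one between populations, although the genes were chosen with results of all 4 libraries known. It was tested with limma with the population as a covariate. Number 3 differed from number 2 for 3065 of 14415 genes (21.3%; 1654 higher and 1411 lower in number 3), and 0 of the 6 sarcomere genes passed (2 of the 4 regulators had no value at all, and neither of the others had 4 values). The nearest were *Mylpf*, lower in number 3 by 0.95 on average with an adjusted p of 0.107 (unadjusted 0.0323), and *Myh3*, with a difference of −1.47 and an adjusted p of 0.147 (unadjusted 0.0517). Without the variance trend of limma, 0 of the 14415 genes passed (smallest adjusted p 0.0536), so that every call between the numbers, those of single genes below included, rests on that trend. *Myh1* (adjusted p = 0.986), *Ttn* (0.989), *Actn3* (0.873) and *Tnnt3* (0.634) had differences from −0.03 to 0.21. A p above the threshold does not show that the numbers were alike.

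Further genes of these pathways were taken from lists that were compiled with earlier results of these data known. Among the other 9 regulators of the list, 7 had a value in each library, and both populations overlapped in all 7, with a median log2 difference of −0.10. Over all genes, 8.10% were lower and 7.59% higher in both PDGFRα reporter+ libraries, so that a count of 0 in so short a list does not set the regulators apart. *Mef2a*, a cofactor of the myogenic factors found in most tissues, had a difference of −0.17. *Pax3*, the relative of *Pax7*, was low and followed the number, with −6.45 and −3.60 in PDGFRα reporter+ and −5.76 and −3.30 in PDGFRα reporter- libraries, higher in number 3 with an adjusted p of 0.0209 (limma). *Myf6*, the fourth myogenic factor, was blank in all libraries. Of the 10 surface genes of satellite cells with a value in each library, 0 were lower and 1 (*Sdc4*) was higher in both PDGFRα reporter+ libraries, close to those shares. *Sdc4* and *Vcam1*, which fibroblasts also express, lay above the upper quartile in every library. The more restricted *Cdh15* (M-cadherin) was at −3.49 and −4.59 in PDGFRα reporter+ and −2.43 and −4.10 in PDGFRα reporter- libraries, and *Megf10* had a difference of −1.06, with overlapping populations for both.

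Both genes for the muscle-specific fusion proteins were low. *Mymk* (myomaker, listed as *Tmem8c*) was blank in both PDGFRα reporter+ libraries and at −2.78 and −4.38 in PDGFRα reporter- numbers 2 and 3, and *Mymx* (listed as *Gm7325*) had values in number 2 only, −5.69 in PDGFRα reporter+ and −3.95 in PDGFRα reporter-. Of the 15 genes for fusion and the neuromuscular junction, 9 had a value in each library, with a median difference of −0.02. *Rapsn* (0.82) and *Musk* (0.77), which cluster acetylcholine receptors at the junction, were higher in both PDGFRα reporter+ libraries, 2 of 9 beside 7.59% of all genes. *Rapsn* rested on 7.2 to 17 read equivalents per library.

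The other genes of the sarcomere, 46 in 3 lists, were lower in both PDGFRα reporter+ libraries for 9 and higher for 1 (*Tnnt1*) of the 23 with a value in each library. Over all genes 8.10% were lower and 7.59% were higher in this way, and 9.74% of genes with a mean log2 value below 0 were lower. The median log2 difference of the 23 genes was −0.52. For the thick filament without the members above, 4 of 5 genes with a value in each library were lower in both PDGFRα reporter+ libraries and the median was −1.36. *Myl1*, the essential light chain of fast fibres, was at −6.08 and −3.41 in PDGFRα reporter+ and −2.07 and −1.64 in PDGFRα reporter- libraries (difference −2.89, standard error 1.04), and the M-line gene *Myom3* had a difference of −1.96. For the thin filament, 3 of 10 were lower, with a median of −0.69. Skeletal actin (*Acta1*) was at −3.05 and −2.10 in PDGFRα reporter+ and 0.37 and −1.50 in PDGFRα reporter- libraries (−2.01, standard error 0.80), and slow troponin I (*Tnni1*) had a difference of −2.09. Slow troponin T (*Tnnt1*) was the opposite of these, at −3.0 and −2.03 in PDGFRα reporter+ and −3.15 and −4.41 in PDGFRα reporter- libraries (1.26). For the Z-disc, 2 of 8 were lower, with a median of −0.37. Desmin (*Des*), which smooth muscle also makes, had a difference of −2.0 and *Myoz2* of −0.59.

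Some sarcomere genes had a value in one population only. *Actn2*, *Mybpc1* and *Xirp1* had values in both PDGFRα reporter- libraries and in no PDGFRα reporter+ library, and over the 122 genes of the 9 muscle lists with any value this held for 8, while 0 had values in both PDGFRα reporter+ libraries and in no PDGFRα reporter- library. Over all 16742 genes with any value the shares were 0.621% and 0.573%, without regard to level. Several of the 8 were at the level that a blank allows, such as *Xirp1* with 1.0 and 3.0, *Mb* with 1.2 and 1.2 and *Cox8b* with 1.0 and 1.0 read equivalents. *Actn2* was at −4.35 and −4.38 in PDGFRα reporter- libraries. Adult *Myh2* was blank in all 4, and *Myh4* (−7.09, blank, −8.03 and −5.21) and *Myh8* (blank, −8.08, −6.47 and −3.60, in the order PDGFRα reporter+ numbers 2 and 3, PDGFRα reporter- numbers 2 and 3) had values in 3 libraries each. The value of *Myh8* in PDGFRα reporter- number 3 stood for about 42 read equivalents, against 1.8 and 5.7 in its other libraries with a value.

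Lists beyond the sarcomere are read against the same shares, 8.10% of all genes lower and 7.59% higher in both PDGFRα reporter+ libraries. Of the 9 genes for excitation-contraction coupling with a value in each library, 2 were lower in both PDGFRα reporter+ libraries and the median was −0.11. The calcium pump *Atp2a1* was at −6.30 and −6.19 in PDGFRα reporter+ and −2.86 and −4.61 in PDGFRα reporter- libraries (−2.51, standard error 0.85), and the calcium release channel *Ryr1* had a difference of −1.31 with overlapping populations. Of 8 genes for muscle metabolism, 1 was lower (*Cox7a1*, −1.30) and the median was −0.18. *Pgam2* followed the number, with −2.09 and −5.27 in PDGFRα reporter+ and −0.76 and −3.65 in PDGFRα reporter- libraries (number 3 lower, adjusted p = 0.00207, limma). None of 7 genes of the dystrophin complex was lower in both PDGFRα reporter+ libraries (median −0.03).

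**Figure D3:**
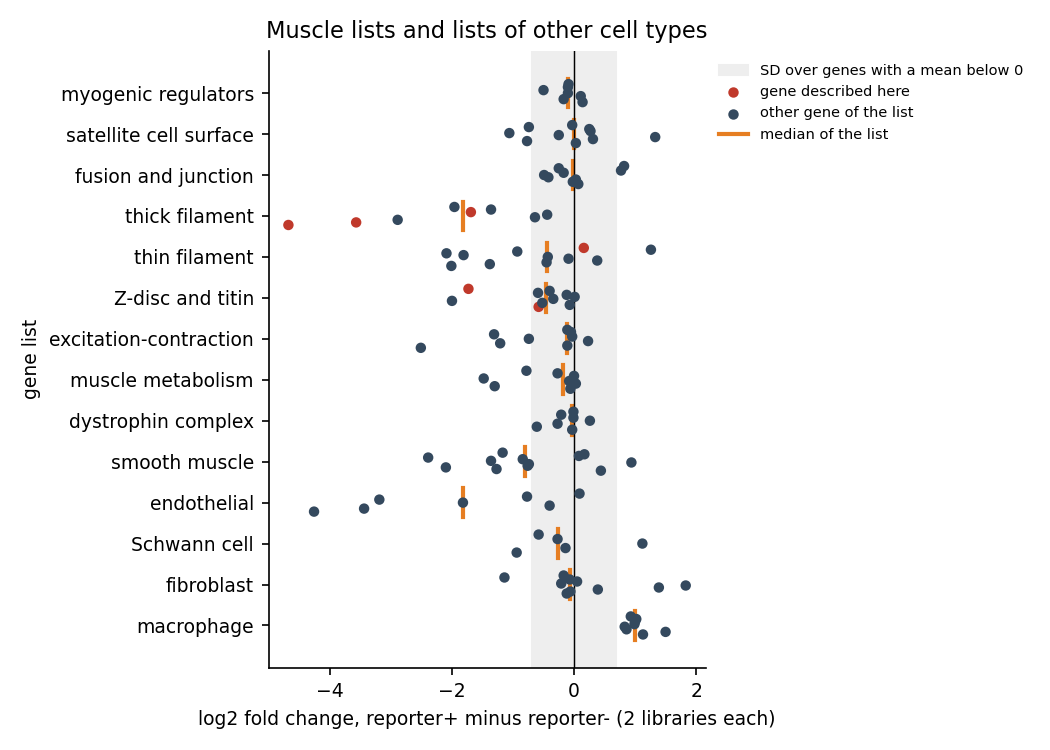
Log2 fold change between populations (horizontal axis, PDGFRα reporter+ minus PDGFRα reporter-) of genes with a value in all 4 libraries, by list; red points are genes described here, orange bars are medians, and the grey band is 1 SD (0.688) over genes with a mean log2 value below 0. The thick filament list has a median of −1.82 and the regulators −0.10, and lists of other cell types also lie off 0, the endothelial list at −1.82 and the macrophage list at 0.99.

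Several endothelial and smooth muscle markers were lower in PDGFRα reporter+ libraries, like most of the sarcomere genes, while macrophage markers were higher. The part of these cell types in the differences was not tested. The shares over all genes for the counts that follow are 8.10% lower and 7.59% higher. Of 12 smooth muscle genes, 4 were lower and 2 higher in both PDGFRα reporter+ libraries (median −0.80), and the sum of their linear values was 36.8 and 37.7 in PDGFRα reporter+ and 55.1 and 52.5 in PDGFRα reporter- libraries. Smooth muscle myosin *Myh11* had a difference of −2.39 and *Actg2* of −2.10. Of 7 endothelial genes with a value in each library, 4 were lower (median −1.82), with a sum over the 8 genes of 1.63 and 1.42 against 3.11 and 4.00, although the sort removed CD31 cells. *Cdh5* had a difference of −4.26 and *Emcn* of −3.44. The 8 macrophage genes were the opposite, with 5 higher in both PDGFRα reporter+ libraries and a sum of 218 and 259 against 84.7 and 167, although the sort removed CD45 cells. Among Schwann cell genes *Sox10* and *Foxd3* had values in the PDGFRα reporter- libraries only. Of the cardiac list, the defining genes *Myh6*, *Nppa* and *Nppb* were blank in all libraries. Cardiac troponin I (*Tnni3*), in contrast, had values of −0.09 and 0.04 in PDGFRα reporter+ and −0.58 and 0.43 in PDGFRα reporter- libraries, with overlapping populations. Among 10 fibroblast genes the median difference was −0.07. In both PDGFRα reporter+ libraries 1 was lower (*Ly6a*, −0.21) and 2 were higher (*Lum*, 1.83, and *Dcn*, 1.39).

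The sarcomere genes had a mean centred profile of −1.01 and −1.01 in PDGFRα reporter+ and 1.37 and 0.65 in PDGFRα reporter- numbers 2 and 3. The 5 genes nearest to it by Euclidean distance over the 4 libraries, among all other genes with 4 values, were *Klf1* (distance 0.14), *Aurkc* (0.23), *Gsg1* (0.33), *Hoxc12* (0.44) and *Tnni1* (0.47), and only *Tnni1* is a sarcomere gene. *Klf1* was at −5.13 and −5.02 in PDGFRα reporter+ and −2.55 and −3.39 in PDGFRα reporter- libraries. All 5 were low, and a likeness over 4 libraries is a description. No such profile could be made for the regulators, of which 0 had 4 values.

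**Figure D4:**
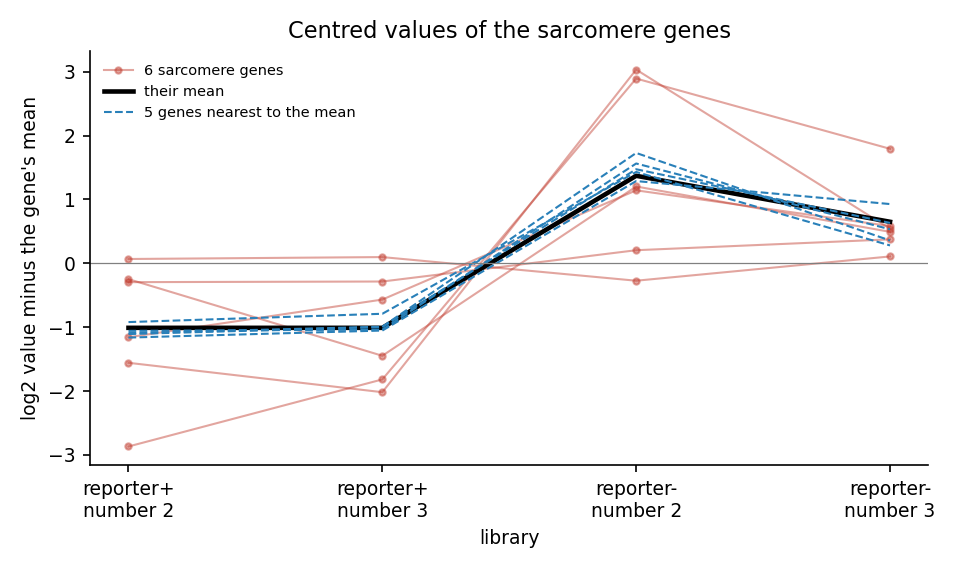
Log2 value minus the mean of the gene (vertical axis) in each library for the 6 sarcomere genes (red), their mean (black) and the 5 genes nearest to that mean (blue, dashed). The mean lies at −1.01 in both PDGFRα reporter+ libraries and at 1.37 and 0.65 in PDGFRα reporter- numbers 2 and 3.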

How the data were processed

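Total RNA of 4 libraries was sequenced by the authors as stranded paired-end Illumina libraries. The submitters' processing notes list bcl2fastq 2.17.1.14, Partek 7.0 and the build GRCm38.p6, and the aligner and the counting are not given in the sources used here. The deposited log2 values were quantile normalized by the authors, with 1 value per gene symbol and a blank for no signal, so that differences in total depth are removed and the true depth is unknown. Values were present for 16742 of 45802 symbols, and in all 4 libraries for 14415.

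Columns were assigned to a population by their heading. Positions and exonic lengths were taken from GENCODE M21 by symbol (95.7% of symbols with a value found), and RefSeq promoters on GRCm38.p6. Read equivalents were computed from the lowest step of log2 value plus log2 exonic length, over genes from 800 to below 12000 bases, an analysis added after the values were seen. The genes and the lists were chosen with earlier results of these data known.

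The log2 difference was the mean of PDGFRα reporter+ minus the mean of PDGFRα reporter- libraries, for genes with 4 values. Its standard error was that of the limma fit without a block, in which the variance of a gene is drawn towards that of genes of similar level. Models were fitted over all 14415 genes with limma 3.58.1 in R 4.3.3 (eBayes with a variance trend, two-sided, Benjamini-Hochberg adjustment, threshold 0.05), between populations without a block and between numbers with the population as a covariate, and were tested on simulated data. An exact permutation test of 2 libraries against 2 cannot go below a two-sided p of 0.333 and was not used. Summaries used pandas 2.3.3, numpy 2.4.6 and matplotlib 3.10.9 under Python 3.11.15. Named genes were the 10 genes, in each list the 2 others with the widest difference of the same sign in both numbers, defining markers, and the 5 nearest profiles. Other list genes named were chosen after their values were seen. Alternatives were a replicate block, no variance trend, a filter on low values, filled blanks, centring, a pseudocount of 1 and leaving out each library.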

Additional observations from a re-analysis of the deposited data

How the results depend on the processing

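Between populations, 0 genes passed the threshold in the fit without a block and in each setting without one, including no variance trend, a mean log2 value of at least 0, blanks at the lowest value, centring, log2(value + 1) on the linear scale and each library left out (0 to 0). With the number as a replicate block in limma, 29 genes passed (22 higher and 7 lower), none of them among the 10 genes. Nothing is read from this for the 10 genes, since they were selected on the same difference. The block without a variance trend, added after the data were seen, gave 0 (941 with an unadjusted p under 0.05, limma). The deviations of same-numbered libraries had a correlation of 0.681 across genes. Between numbers, the 3065 genes became 1825 with the pseudocount of 1 and 0 without the variance trend (3909 with an unadjusted p under 0.05, smallest adjusted p 0.0536); the causes were not tested. The median difference of the 6 sarcomere genes was −1.40 to −2.03 with a library left out and −0.18 with the pseudocount of 1, which compresses values this low by its construction; *Myh1* became −0.20 and *Myh3* −0.34 there. Of 42 alternatives over these genes, 1 had the other sign (*Tnnt3*, −0.03 without PDGFRα reporter- number 2). Leaving out that library moved *Myh3* to −2.33, and leaving out PDGFRα reporter+ number 3 moved *Mylpf* to −1.09. For the sarcomere genes without overlap between populations, neither leaving out a library nor the pseudocount can change the sign. Filling blanks changes nothing for genes with 4 values, and centring hardly moved them. The count of signs is thus no measure of how stable the differences are. *Myog* had a difference of 1.51 with blanks at the lowest value of the table and −0.52 with blanks at its own level of 1 read, an alternative added after the data were seen, so that its direction rests on the filling; *Myod1* was at −2.37 and −0.49. No median of the 4 regulators could be computed without filling, since 0 of them had 4 values.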
